A study of Mus musculus with 8 samples.

Results

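The 40 genes described here are those of glucose uptake and glycolysis and of the hypoxia-inducible factor (HIF) response, taken from the array wherever the gene name in the scanner files equals one of a fixed set of names. All 40 were found and all 40 passed the filter on dim probes, out of 36163 gene names on the array and 24464 tested. They comprise 27 genes for glucose transporters, glycolytic enzymes and the handling of lactate and pyruvate, and 13 genes for HIF regulators and HIF targets outside glycolysis. Whole-lung RNA came from C57BL/6 mice, 4 of them wild-type and 4 with a GGPPS1 knockout (gene symbol Ggps1) described as lung-specific. All 8 mice had been given lipopolysaccharide (LPS) 12 h earlier. The sources used here do not give the promoter that drives the deletion, the cells it reaches, or the age of the mice. Lungs without LPS were not analysed here. LPS is the bacterial outer-membrane molecule that sets off acute lung inflammation, and Ggps1 encodes the enzyme that makes geranylgeranyl diphosphate, a lipid attached to small GTPases.

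Glycolysis splits glucose into pyruvate, which is either burnt in mitochondria or turned into lactate and exported. Activated macrophages and neutrophils take up much glucose in this way, and LPS is known to raise glycolytic genes in macrophages. HIF is a pair of proteins, an oxygen-labile α subunit (Hif1a or Epas1) and the stable partner Arnt. In oxygen, prolyl hydroxylases (Egln1, Egln3) mark the α subunit for VHL and the proteasome. When hydroxylation fails, HIF binds the core ACGTG or GCGTG of hypoxia response elements and raises glycolytic enzymes together with its own brake, Egln3.

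Values below are log2 signals minus that array's own 75th percentile, given for replicates 1 to 4 in that order, so a value of 0 marks a probe at that percentile. Differences are log2 values of knockout less those of wild-type lungs, from limma, fitted on all 24464 genes, with Benjamini-Hochberg adjusted p-values and a threshold of 0.05. Ggps1 itself read 1.26, 1.34, 1.26 and 1.40 in the wild-type and 1.32, 1.24, 1.22 and 1.24 in the knockout lungs, a difference of -0.06 ± 0.068 (SE; adjusted p = 0.613). Its other 2 probes overlapped between the groups too. The sources used here do not place the probes relative to the deleted part, so the array does not check the genotype, and "knockout" below means the lungs so labelled. Each array had 58.1% to 65.3% of its spots well above background. That share averaged 63.6% ± 1.8 (SD, n = 4) for wild-type and 59.8% ± 1.5 (SD, n = 4) for knockout lungs, with a two-sided exact permutation p of 0.0571, where 0.0286 is the smallest possible. Spots at the surrogate value, which stands in for signal not told from background, made up 17.0% ± 2.1 (SD, n = 4) in wild-type and 22.5% ± 1.7 (SD, n = 4) in knockout lungs, with an exact permutation p of 0.0286. The groups did not overlap in that share, so the knockout arrays held more spots not told from background, and its part in the results was not tested. The alveolar type 2 markers Sftpc, Sftpb, Sftpa1, Abca3, Lamp3 and Slc34a2 were well above background on every array. The arrays shared 1 slide, wild-type lungs in its row 1 and knockout lungs in row 2, so slide row and genotype cannot be told apart. In whole-lung RNA, fewer cells of a type and less RNA per cell cannot be told apart either.

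None of the 40 members passed the threshold over all genes, against a background of 0.0613% of all genes. The lowest adjusted p of a member was 0.0566, for Egln3. At an unadjusted p under 0.05, 12 members were lower in the knockout lungs, where 13.4% of all genes were, and 5 were higher, where 10.2% of all genes were. The 4 knockout values lay wholly below the 4 wild-type values in 11 members, against 9.21% of all genes, and wholly above in 2, against 6.1%, together 13 members against 15.3%. In total 26 members had a negative and 14 a positive difference, beside 13282 and 11182 of all 24464 genes. With median centring, which moves the median of all genes to -0.083, the counts of members were 32 and 8. The median difference was -0.11 in the 27 genes of glucose uptake and glycolysis and -0.02 in the 13 HIF genes, beside -0.03 over all genes tested. These are descriptions, and nothing particular to the 40 genes is read from them.

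**Figure D1:**
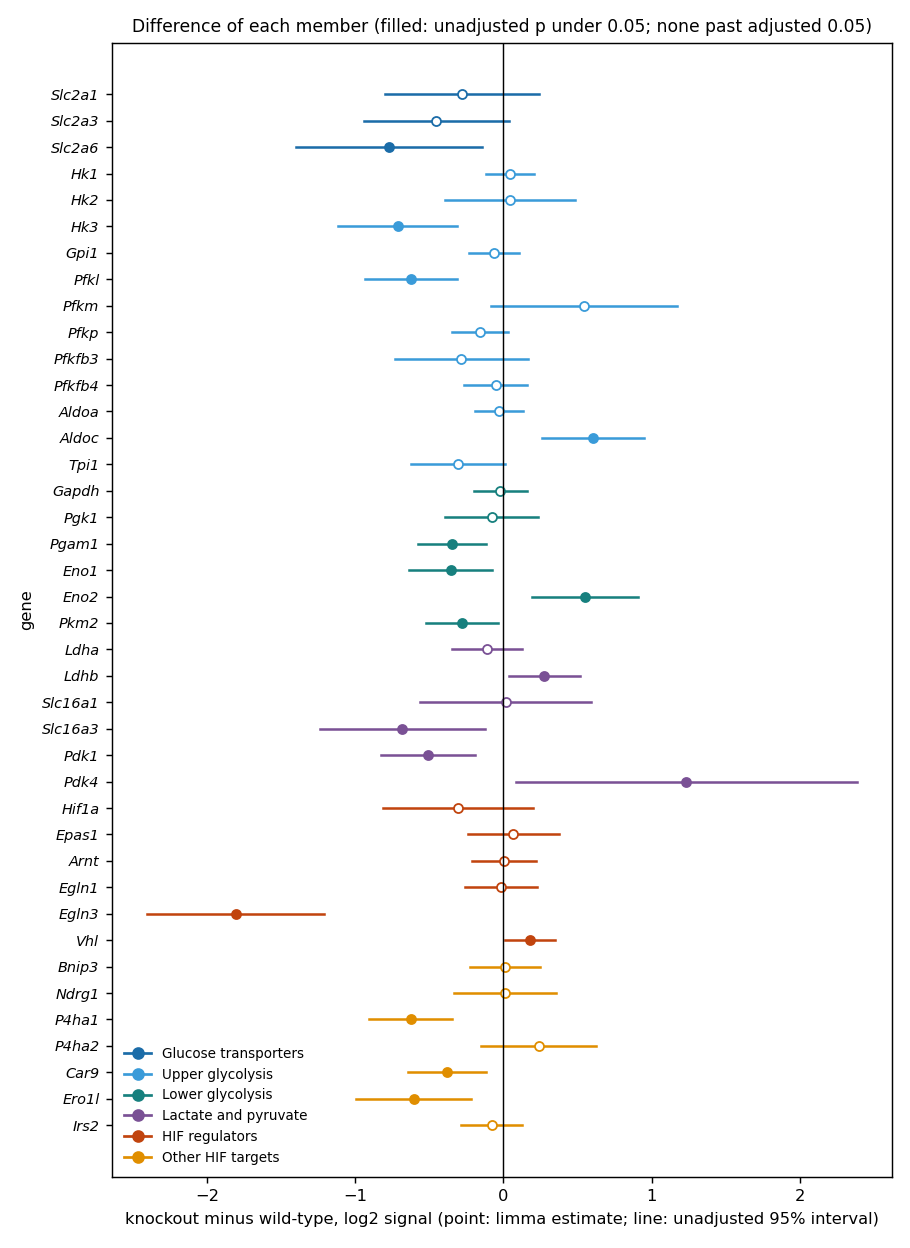
Difference between knockout and wild-type lungs for each of the 40 genes (x axis, log2 signal, points with unadjusted 95% intervals, coloured by role, filled where the unadjusted p is under 0.05). Egln3 stands furthest left at -1.81 and Pdk4 furthest right at 1.23, while Gapdh, Arnt, Bnip3 and Ndrg1 sit at about 0.

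Among the HIF regulators, Egln3 differed most. Egln3 is a prolyl hydroxylase that hydroxylates HIF α subunits and is itself a HIF target. Its signal was 0.86, 0.96, -0.13 and 0.26 in the wild-type and -1.17, -1.02, -1.46 and -1.62 in the knockout lungs. Every knockout lung lay below every wild-type lung, with a gap between the lowest wild-type and the highest knockout value. The difference was -1.81 ± 0.26 (SE; adjusted p = 0.0566), or 3.50-fold lower, with an unadjusted 95% interval of -2.40 to -1.21. A further Egln3 probe differed by -1.57 ± 0.30 (SE; adjusted p = 0.0632 with each probe tested on its own). The adjusted p of Egln3 ranged from 0.0319 to 0.132 over 19 other settings and was under 0.05 in 7 of them, the highest being without wild-type replicate 2.

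The other regulators had smaller differences on their brightest probes. Hif1a, the α subunit that responds to inflammation as well as to hypoxia, read 3.23, 3.87, 3.56 and 3.99 in the wild-type and 3.22, 3.78, 2.96 and 3.45 in the knockout lungs. The groups overlapped, knockout replicate 3 being lowest and wild-type replicate 4 highest, and the difference was -0.31 ± 0.22 (SE; adjusted p = 0.412). A far dimmer Hif1a probe gave -0.78 ± 0.29 (SE). Epas1 (HIF-2α), abundant in lung endothelium, read 8.03, 7.62, 7.84 and 7.91 in the wild-type and 8.03, 7.78, 8.16 and 7.70 in the knockout lungs. Its difference was 0.07 ± 0.13 (SE; adjusted p = 0.786) with an interval of -0.24 to 0.37, but the dimmer Epas1 probes gave -0.35 ± 0.18 and -0.09 ± 0.097 (SE), so the probes disagree in sign. Arnt, the shared partner subunit, differed by 0.0044 ± 0.094, with an interval of -0.21 to 0.22, on its brightest probe and by -0.56 ± 0.19 (SE; adjusted p = 0.14 with each probe tested on its own) on a dimmer one.

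Egln1, the hydroxylase that sets HIF levels in most tissues, read -2.50, -2.52, -2.47 and -2.88 in the wild-type and -2.68, -2.53, -2.59 and -2.65 in the knockout lungs. Wild-type replicate 4 stood below the other wild-type lungs, and the difference was -0.02 ± 0.11 (interval -0.26 to 0.23). Vhl, the ubiquitin ligase subunit that recognises hydroxylated HIF, read 1.63, 1.66, 1.48 and 1.70 in the wild-type and 1.77, 1.76, 1.81 and 1.85 in the knockout lungs. Each knockout value was above each wild-type value, but by little, and the difference of 0.18 ± 0.074 (SE; adjusted p = 0.192) did not pass.

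Of the HIF targets outside glycolysis, P4ha1, Ero1l and Car9 had separate groups and the other 4 did not. P4ha1, a subunit of collagen prolyl 4-hydroxylase, read -0.59, -0.51, -0.63 and -0.83 in the wild-type and -0.98, -1.37, -1.45 and -1.26 in the knockout lungs. No knockout lung reached the lowest wild-type lung, and the difference was -0.63 ± 0.12 (SE; adjusted p = 0.0628), or 1.54-fold lower. A much dimmer P4ha1 probe gave -0.17 ± 0.12 (SE). P4ha1 passed the threshold with normexp, an intensity trend, no filter or with the mean of cardiac marker genes as a covariate. Ero1l (Ero1a in RefSeq), the oxidase that renews disulfide bond formation in the endoplasmic reticulum, read -1.14, -0.44, -1.04 and -0.98 in the wild-type and -1.45, -1.27, -1.68 and -1.63 in the knockout lungs. The groups were separate, with wild-type replicate 2 far above its group, and the difference was -0.60 ± 0.17 (SE; adjusted p = 0.0983). Car9, a membrane carbonic anhydrase and one of the most used hypoxia markers, read -1.89, -1.82, -1.84 and -1.94 in the wild-type and -2.53, -2.02, -2.15 and -2.31 in the knockout lungs. Again the groups were separate, and the difference was -0.38 ± 0.11 (SE; adjusted p = 0.110). With normexp background correction these 3 differences were smaller, at -0.20 for Car9, -0.50 for P4ha1 and -0.50 for Ero1l. The Egln3 difference was smaller too, at -1.57 on its brightest probe. The size of these differences thus depends on how background is treated.

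Bnip3, a mitophagy receptor and textbook HIF-1 target, read 3.30, 3.66, 3.30 and 3.34 in the wild-type and 3.39, 3.29, 3.49 and 3.47 in the knockout lungs. Only wild-type replicate 2 stood out, above the rest of its group, and the groups did not differ beyond their spread (0.01 ± 0.10, interval -0.23 to 0.25). Ndrg1, a stress-responsive HIF target, differed by 0.01 ± 0.15 (interval -0.33 to 0.36), P4ha2, the sister subunit of P4ha1, by 0.24 ± 0.17 (SE; adjusted p = 0.411), and Irs2, the insulin receptor substrate, by -0.08 ± 0.089 (interval -0.28 to 0.13). The 2 collagen hydroxylase subunits had differences of opposite sign, neither past the threshold.

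The promoters of 5 members are shown because Egln3, P4ha1 and Ero1l had separate groups while Pgk1 and Ldha, both classical HIF-1 targets, did not. The Pgk1 probe may read a near-identical copy of the gene, as described below, so the Pgk1 level is uncertain. Each promoter is the RefSeq window of GRCm38.p6 from 250 bases before to 50 bases after the gene's start. It is written 5′ to 3′ on the gene's strand, the first window where RefSeq gives several. Capitals mark every ACGTG or GCGTG core on either strand; the palindrome CACGTG reads as ACGTG on both strands and is counted once. Egln3 lies at chr12:54203825-54204124 on the minus strand, P4ha1 at chr10:59323046-59323345 on the plus strand, and Ero1l at chr14:45318523-45318822 on the minus strand. Pgk1 lies at chrX:106186850-106187149 and Ldha at chr7:46845554-46845853, both on the plus strand.
Egln3: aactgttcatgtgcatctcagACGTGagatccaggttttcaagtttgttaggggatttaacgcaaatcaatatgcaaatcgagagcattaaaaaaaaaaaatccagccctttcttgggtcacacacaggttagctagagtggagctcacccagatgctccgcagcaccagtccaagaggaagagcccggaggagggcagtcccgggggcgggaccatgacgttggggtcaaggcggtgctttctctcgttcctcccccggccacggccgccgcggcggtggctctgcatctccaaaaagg
P4ha1: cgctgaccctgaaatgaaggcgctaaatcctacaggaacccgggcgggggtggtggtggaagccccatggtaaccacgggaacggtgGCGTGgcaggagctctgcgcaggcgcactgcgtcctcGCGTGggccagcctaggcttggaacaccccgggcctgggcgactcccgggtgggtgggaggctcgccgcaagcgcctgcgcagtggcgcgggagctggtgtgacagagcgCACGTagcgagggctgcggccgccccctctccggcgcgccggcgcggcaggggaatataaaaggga
Ero1l: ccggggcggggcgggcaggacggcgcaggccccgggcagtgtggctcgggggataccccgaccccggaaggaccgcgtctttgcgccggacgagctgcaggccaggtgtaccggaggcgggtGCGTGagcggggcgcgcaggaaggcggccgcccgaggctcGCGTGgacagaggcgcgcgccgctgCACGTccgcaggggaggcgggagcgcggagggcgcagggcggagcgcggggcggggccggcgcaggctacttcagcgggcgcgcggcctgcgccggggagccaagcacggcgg
Pgk1: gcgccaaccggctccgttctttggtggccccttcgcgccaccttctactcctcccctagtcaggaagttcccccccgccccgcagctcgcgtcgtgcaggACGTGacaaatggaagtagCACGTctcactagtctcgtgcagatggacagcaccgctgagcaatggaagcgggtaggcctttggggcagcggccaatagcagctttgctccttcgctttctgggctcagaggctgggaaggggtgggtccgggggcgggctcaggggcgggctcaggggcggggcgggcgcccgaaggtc
Ldha: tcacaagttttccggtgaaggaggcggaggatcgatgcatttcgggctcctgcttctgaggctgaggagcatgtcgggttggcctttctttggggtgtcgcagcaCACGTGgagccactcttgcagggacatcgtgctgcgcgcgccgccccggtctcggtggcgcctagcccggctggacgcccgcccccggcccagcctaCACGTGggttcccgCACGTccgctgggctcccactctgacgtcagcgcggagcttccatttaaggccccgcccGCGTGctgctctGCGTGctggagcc
Egln3 held 1 such core, P4ha1 and Ero1l held 3 each, Pgk1 held 2 and Ldha held 5. Of the 37 members with a window, 30 (81.1%) held at least 1, against 43.8% of all 32851 RefSeq windows. That share was 76.9% for the glycolytic and 90.9% for the HIF genes. Each member counts once here, by its first window, while the RefSeq share counts every window of every gene. The members were also chosen as glycolysis and HIF genes, so the excess over 43.8% is not a result of these data. A core in such a window is a match of letters and shows neither binding nor its absence, and members with and without separate groups both carried it.

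**Figure D2:**
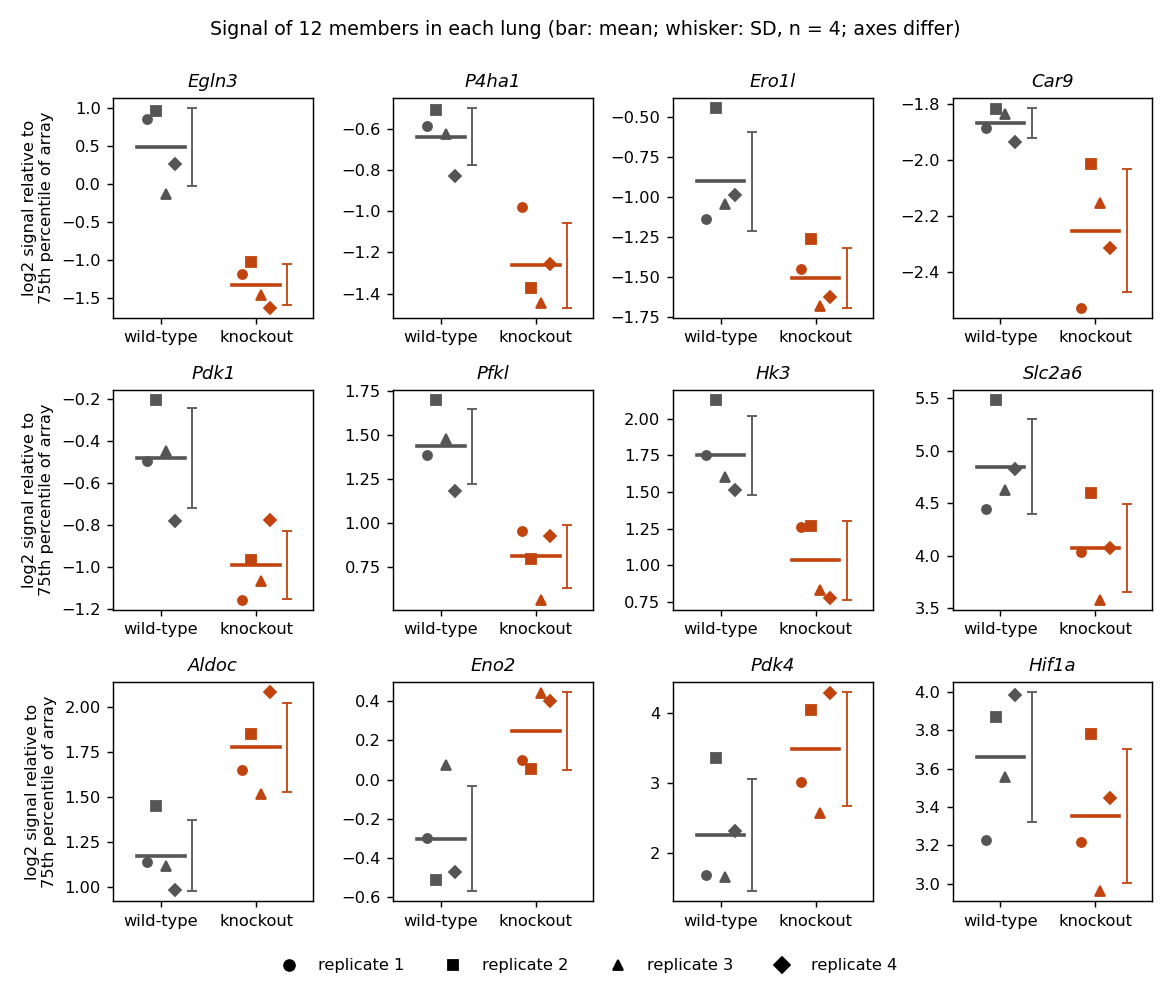
Log2 signal over each array's 75th percentile (y axis, a scale of its own in each panel) for 12 genes in each of the 4 wild-type (grey) and 4 knockout (orange) lungs, with the mean as a bar and the SD as a whisker. Egln3, P4ha1, Ero1l, Car9, Pfkl and Hk3 show knockout lungs wholly below wild-type lungs, Aldoc wholly above, and Hif1a overlapping groups.

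All 3 glucose transporters, with a median of -0.45, had a negative difference. Slc2a1 (GLUT1), the widely expressed and HIF-inducible transporter, read 3.38, 4.31, 3.59 and 4.02 in the wild-type and 3.38, 3.80, 3.24 and 3.77 in the knockout lungs. The groups overlapped across most of their range, and the difference was -0.28 ± 0.23 (SE; adjusted p = 0.472). Slc2a6 (GLUT6), a transporter of LPS-activated macrophages, read 4.45, 5.48, 4.63 and 4.83 in the wild-type and 4.03, 4.60, 3.58 and 4.08 in the knockout lungs. Here 3 of 4 knockout lungs lay below every wild-type lung, and the difference was -0.77 ± 0.27 (SE; adjusted p = 0.150), with -0.91 ± 0.26 (SE) on a further probe. Slc2a3 (GLUT3), high in neurons and leukocytes, differed by -0.45 ± 0.21 (SE; adjusted p = 0.238).

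Of the hexokinases, which trap glucose in the cell, only Hk3 had separate groups. Hk3, the hexokinase of myeloid cells, read 1.75, 2.13, 1.61 and 1.52 in the wild-type and 1.27, 1.27, 0.83 and 0.78 in the knockout lungs. All knockout lungs were lower, replicates 3 and 4 the most, and the difference was -0.71 ± 0.17 (SE; adjusted p = 0.0794), or 1.64-fold lower. Hk2, the HIF-inducible and insulin-responsive form, read 1.22, 2.05, 1.38 and 1.63 in the wild-type and 1.50, 1.88, 1.40 and 1.69 in the knockout lungs, which differed by 0.05 ± 0.19 (interval -0.40 to 0.49). Hk1, the form used by most cells, differed by 0.04 ± 0.071 (interval -0.12 to 0.21), and Gpi1, glucose-6-phosphate isomerase, read 6.57, 6.79, 6.63 and 6.65 in the wild-type and 6.58, 6.58, 6.57 and 6.65 in the knockout lungs, a difference of -0.06 ± 0.073.

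Phosphofructokinase commits sugar to glycolysis, and its 3 subunits did not have the same sign. Pfkl, the liver-type subunit that also prevails in phagocytes, read 1.38, 1.70, 1.48 and 1.18 in the wild-type and 0.96, 0.79, 0.56 and 0.93 in the knockout lungs. The groups were separate, and the difference was -0.63 ± 0.13 (SE; adjusted p = 0.0683), or 1.54-fold lower. Pfkp, the platelet type, read 1.37, 1.65, 1.43 and 1.41 in the wild-type and 1.33, 1.25, 1.37 and 1.29 in the knockout lungs, separate by a small margin at -0.16 ± 0.082 (SE; adjusted p = 0.280). Pfkm, the muscle type, differed by 0.55 ± 0.27 (SE; adjusted p = 0.264). Pfkfb3, which makes the activator fructose 2,6-bisphosphate and is induced by LPS and hypoxia, read 5.55, 6.31, 5.68 and 6.11 in the wild-type and 5.69, 5.92, 5.37 and 5.54 in the knockout lungs, with overlapping groups and a difference of -0.28 ± 0.19 (SE; adjusted p = 0.399). Its relative Pfkfb4 differed by -0.05 ± 0.092 (interval -0.26 to 0.16).

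Of the aldolases, which cut the sugar into trioses, Aldoc had separate groups and Aldoa did not. Aldoc, the aldolase best known from brain, read 1.14, 1.45, 1.12 and 0.99 in the wild-type and 1.65, 1.85, 1.52 and 2.08 in the knockout lungs. Every knockout lung was above every wild-type lung, and the difference was 0.60 ± 0.15 (SE; adjusted p = 0.0805), or 1.52-fold higher. Aldoa, the main aldolase of muscle and most other cells, differed by -0.03 ± 0.069 (interval -0.19 to 0.13). Tpi1, triosephosphate isomerase, read 4.61, 5.07, 4.80 and 4.64 in the wild-type and 4.59, 4.51, 4.19 and 4.61 in the knockout lungs; the highest knockout value equalled the lowest wild-type value to within rounding, and the difference was -0.31 ± 0.14 (SE; adjusted p = 0.222).

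In lower glycolysis, where energy is recovered, 3 enzymes had separate groups. Pgam1, phosphoglycerate mutase, read 5.47, 5.85, 5.62 and 5.49 in the wild-type and 5.25, 5.32, 5.17 and 5.30 in the knockout lungs, a difference of -0.34 ± 0.099 (SE; adjusted p = 0.103). Eno1, the common enolase, read 6.70, 6.95, 6.73 and 6.65 in the wild-type and 6.46, 6.56, 6.09 and 6.48 in the knockout lungs, with knockout replicate 3 lowest and a difference of -0.36 ± 0.12 (SE; adjusted p = 0.141). Pkm2 (Pkm in RefSeq), pyruvate kinase of non-erythroid and non-hepatic cells, read 5.92, 5.97, 5.97 and 5.97 in the wild-type and 5.79, 5.66, 5.40 and 5.86 in the knockout lungs. Its wild-type lungs were nearly equal, all knockout lungs were lower, and the difference was -0.28 ± 0.11 (SE; adjusted p = 0.169). Eno2, the neuronal enolase, went the other way and read -0.30, -0.51, 0.08 and -0.47 in the wild-type and 0.10, 0.06, 0.44 and 0.40 in the knockout lungs. Wild-type replicate 3 lay just above knockout replicate 2, the others were apart, and the difference was 0.55 ± 0.16 (SE; adjusted p = 0.101).

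Gapdh and Pgk1, which follow the aldolase step, had overlapping groups. Gapdh, glyceraldehyde-3-phosphate dehydrogenase and often a reference gene, read 8.39, 8.34, 8.29 and 8.33 in the wild-type and 8.36, 8.36, 8.15 and 8.40 in the knockout lungs. Knockout replicate 3 was lowest, and the difference was -0.02 ± 0.077 (interval -0.20 to 0.16). The other 7 Gapdh probes gave -0.05 to -0.24. Pgk1, phosphoglycerate kinase, read 5.43, 5.98, 5.78 and 5.71 in the wild-type and 5.65, 5.65, 5.44 and 5.85 in the knockout lungs, with overlapping groups and a difference of -0.08 ± 0.14 (interval -0.39 to 0.23). The files place the Gapdh probe used here on mm9 chromosome 7 and the Pgk1 probe on chromosome 3, while RefSeq has the genes on chromosomes 6 and X. Processed pseudogenes of both genes are known, so these 2 probes may read near-identical copies and their levels are uncertain. For the other 38 members the chromosomes matched.

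Genes of lactate and pyruvate handling had differences of both signs. Ldha, the lactate dehydrogenase chain that favours lactate and a classical HIF-1 target, read 7.19, 7.52, 7.33 and 7.40 in the wild-type and 7.23, 7.30, 7.06 and 7.39 in the knockout lungs. The groups overlapped, and the difference was -0.11 ± 0.10 (SE; adjusted p = 0.532), with -0.07 and -0.20 on the other probes. Ldhb, the chain prevailing in heart, read 3.55, 3.38, 3.28 and 3.21 in the wild-type and 3.58, 3.63, 3.51 and 3.81 in the knockout lungs, 3 knockout lungs being above all wild-type lungs and the difference 0.27 ± 0.10 (SE; adjusted p = 0.169). Slc16a3 (MCT4), the lactate exporter of highly glycolytic cells, read 4.71, 5.61, 4.84 and 5.12 in the wild-type and 4.44, 4.73, 3.86 and 4.51 in the knockout lungs. Only knockout replicate 2 reached into the wild-type range, just above wild-type replicate 1, and the difference was -0.68 ± 0.24 (SE; adjusted p = 0.152). Slc16a1 (MCT1), a two-way lactate transporter, was dim and differed by 0.01 ± 0.25 (interval -0.56 to 0.59).

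Pdk1 and Pdk4 both block pyruvate dehydrogenase and so keep pyruvate out of mitochondria, Pdk1 under HIF and Pdk4 under fasting, glucocorticoid and fatty acid signals. Pdk1 read -0.50, -0.21, -0.45 and -0.78 in the wild-type and -1.16, -0.97, -1.07 and -0.78 in the knockout lungs. Wild-type replicate 4 and knockout replicate 4 met at the border, and the difference was -0.51 ± 0.14 (SE; adjusted p = 0.0943). Pdk4 read 1.69, 3.37, 1.65 and 2.31 in the wild-type and 3.02, 4.05, 2.58 and 4.29 in the knockout lungs. Its mean was 2.35-fold higher in the knockout lungs, a difference of 1.23 ± 0.50 (SE; adjusted p = 0.189) that did not pass, and its spread was wide in both groups and wild-type replicate 2 lay above knockout replicates 1 and 3. Side by side, the kinases had differences of opposite sign, as did Pfkl and Pfkm, Eno1 and Eno2, and Ldha and Ldhb. These pairs were picked out after the values were seen and were not tested.

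**Figure D3:**
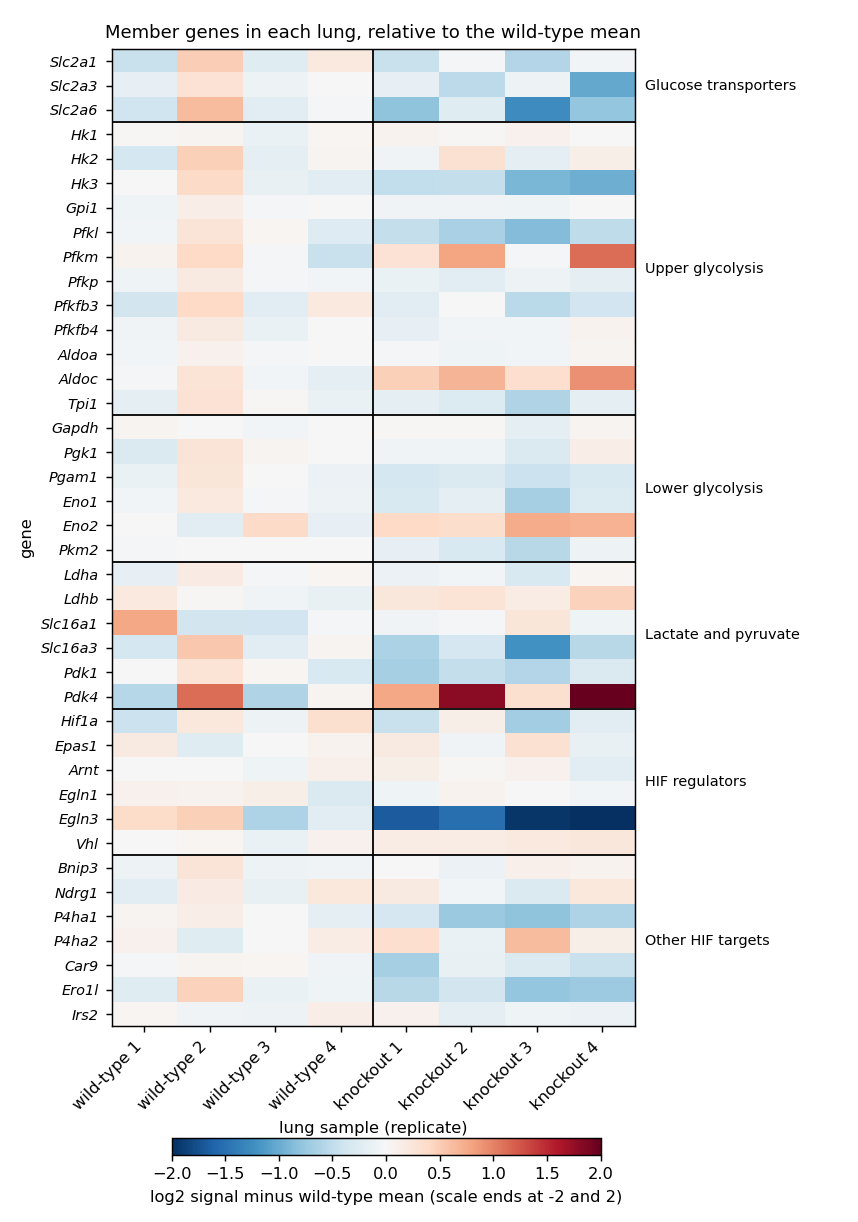
Log2 signal of each gene (rows, grouped by role) in each lung (columns) minus the mean of its 4 wild-type values, from blue (below) to red (above) on a scale that ends at -2 and 2. Egln3 is blue in all 4 knockout lungs, Aldoc and Pdk4 are red there, and wild-type replicate 2 is red for most rows.

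One wild-type lung stood apart in these genes. Wild-type replicate 2 had the highest value of its group in 27 of 40 members (67.5%), against 24% of all genes, and knockout replicate 3 had the lowest of its group in 22 members (55%), against 30.7% of all genes. The mean over the 27 genes of uptake and glycolysis was 3.61, 3.97, 3.63 and 3.66 in the wild-type and 3.59, 3.71, 3.43 and 3.72 in the knockout lungs, where wild-type replicate 2 lay above all other lungs. The mean over the 13 HIF genes was 1.83, 1.94, 1.74 and 1.85 in the wild-type and 1.63, 1.61, 1.57 and 1.53 in the knockout lungs, and there the groups did not overlap, Egln3 included. Without Egln3 that mean was 1.91, 2.03, 1.90 and 1.98 in the wild-type and 1.87, 1.83, 1.82 and 1.79 in the knockout lungs, separate still but closer. Without wild-type replicate 2, an unadjusted p under 0.05 was reached by 9 members on the lower and 5 on the higher side, where 18.6% of all genes passed in either direction. Without it none passed after adjustment, as with all 8 lungs. The Egln3 difference was -2.01 to -1.65 over the fits that left out 1 lung each.

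Marker genes of other cells differed between the lungs too. Cardiac muscle markers, which heart and the muscle sleeves of pulmonary veins express, were higher in 12 of the 13 measured of 14 listed, all 13 well above background in both groups. Their mean was -0.71, 3.29, 0.53 and 0.69 in the wild-type and 1.72, 3.48, 0.80 and 3.35 in the knockout lungs. Wild-type replicate 2 and knockout replicates 2 and 4 stood highest, which are also the 3 highest lungs for Pdk4 and for Pfkm. With the cardiac mean as a covariate, the difference was 0.53 ± 0.20 (SE; adjusted p = 0.138) for Pdk4 and 0.26 ± 0.23 (SE; adjusted p = 0.490) for Pfkm. In the same fit the difference was -1.90 ± 0.30 (SE; adjusted p = 0.0319) for Egln3 and -1.14 ± 0.14 (SE; adjusted p = 0.0294) for Slc2a6. It called 12 members, all lower, namely Egln3, P4ha1, Ero1l, Slc2a1, Slc2a6, Slc16a3, Hk3, Pfkl, Tpi1, Pgam1, Eno1 and Pdk1. Over all 24464 genes the same fit called 1048 lower and 686 higher, together 7.09%. In the main fit, without the covariate, none of the 12 passed, and Slc2a1 had an adjusted p of 0.472. Egln3, P4ha1, Pfkl and Hk3 passed without the covariate in some of the other settings. The cardiac mean comes from the same arrays and was highest among wild-type lungs in replicate 2, as were most members. The part of cardiac muscle in the member values was not tested. Of the 5 fat markers, Lep was well above background on 0 wild-type and 3 knockout arrays, and Adipoq and Plin1 on 2 and 3, so no count or mean is given for that list. The fat markers on all arrays, Cfd and Fabp4, differed by 3.22 ± 2.6 (SE; adjusted p = 0.463) and 1.44 ± 0.85 (SE; adjusted p = 0.334). The part of fat in the member values was not tested.

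Monocyte and interstitial macrophage markers had lower knockout means in 9 of 9 measured of 10 listed, each well above background on all arrays. Their mean was 2.90, 3.18, 2.99 and 2.80 in the wild-type and 2.09, 2.61, 2.26 and 1.97 in the knockout lungs, with no overlap. Alveolar macrophage markers were lower in 6 of 8 measured of 9 listed, and their mean was 3.28, 3.34, 2.96 and 2.84 in the wild-type and 2.81, 2.73, 2.58 and 2.66 in the knockout lungs, again with no overlap. Neutrophil markers, 6 of the 11 measured of 12 listed being higher, averaged 4.32, 4.57, 4.29 and 4.34 in the wild-type and 4.54, 4.32, 4.13 and 4.68 in the knockout lungs, and here the groups overlapped. Within that list Cxcr2 (-1.10, adjusted p = 0.0705) and Retnlg (-0.57, adjusted p = 0.104) had separate groups and were lower. Every other measured marker overlapped, and 15.3% of all genes had separate groups in either direction. Ltf ranged from 1.54 to 6.89 among the knockout lungs, so the list mean does not show neutrophils to be unchanged. Hk3, Slc2a6, Slc16a3 and Pfkl are expressed in these phagocytes among other cells. The part of cell numbers in their differences was not tested.

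Markers of the airway and of other lung cells differed as well. Club cell markers were higher in 4 of 4, with a mean of 6.47, 6.28, 6.50 and 6.07 in the wild-type and 6.90, 7.13, 6.68 and 7.20 in the knockout lungs, and ciliated cell markers in 3 of 3 measured of 5 listed, with a mean of 1.40, 1.05, 1.23 and 0.99 in the wild-type and 1.77, 1.88, 1.69 and 2.48 in the knockout lungs. Neither list overlapped between the groups. Alveolar type 1 markers were lower in 7 of 7, with a mean of 3.94, 3.22, 3.65 and 3.36 in the wild-type and 3.05, 2.55, 3.36 and 2.17 in the knockout lungs, where knockout replicate 3 lay within the wild-type range. Smooth muscle markers were higher in 5 of 5 (wild-type 1.84 to 3.16, knockout 2.56 to 4.42) and erythroid markers lower in 5 of 5 measured of 6 listed (wild-type 4.35 to 6.12, knockout 4.49 to 5.05), both with overlapping groups. Alveolar type 2 markers were lower in 4 of 6, endothelial markers in 3 of 6 and fibroblast markers in 3 of 5, again with overlap. The part of these cells in the member values was not tested.

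**Figure D4:**
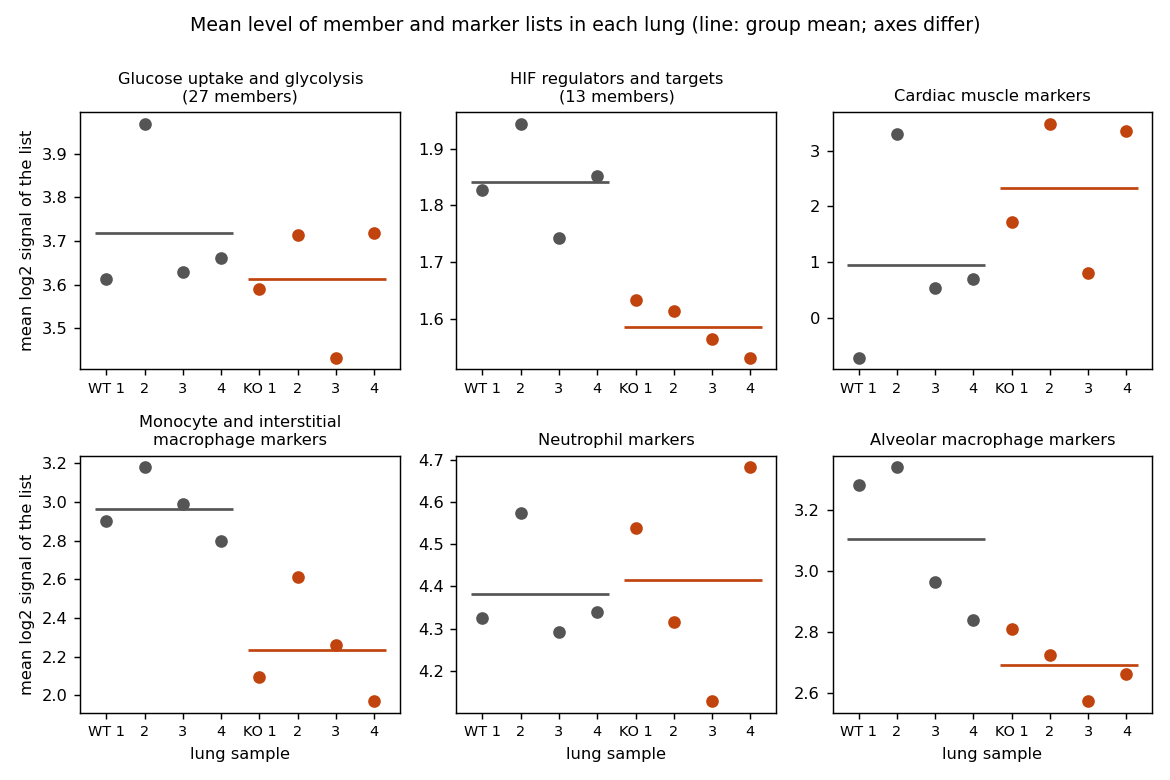
Mean log2 signal of 2 member lists and 4 marker lists (y axis, a scale of its own in each panel) in each lung, with lines at the group means. Wild-type replicate 2 is the highest wild-type lung in all 6 panels, and the means of the monocyte and alveolar macrophage lists are lower in every knockout lung.

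Other genes of the same pathways, 105 in 2 lists, were examined in the same fit, and 90 were measured. None passed the threshold in either direction. Of 46 measured genes of glycolysis, glucose uptake and the routes around pyruvate, 28 had a positive difference (median 0.16), and 13 of the higher and 5 of the lower ones had an unadjusted p under 0.05, beside 10.2% and 13.4% of all genes. Of 44 measured hypoxia-inducible genes and regulators, 30 had a negative difference (median -0.13), and 12 of the lower and 4 of the higher ones reached that level, beside 13.4% and 10.2% of all genes. Over all 24464 genes, 11182 had a positive and 13282 a negative difference. Slc2a5, counted as positive, was well above background on 0 wild-type and 3 knockout arrays. Bhlhe41, counted as negative, was so on 3 wild-type and 1 knockout arrays. Each thus passed the filter through 1 group only, and neither had an unadjusted p under 0.05. Ankrd37, a HIF-1 target, had the smallest p and read 1.03, 1.39, 1.52 and 0.74 in the wild-type and 0.15, -0.08, 0.02 and -0.12 in the knockout lungs. The groups were separate, at -1.18 ± 0.17 (SE; adjusted p = 0.0568) or 2.26-fold lower. Fam162a, a mitochondrial HIF-1 target, differed by -0.30 ± 0.071 (SE; adjusted p = 0.0774), and Plod1, a collagen lysyl hydroxylase, by -0.50 ± 0.12 (SE; adjusted p = 0.0790).

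Pfkfb1, the liver and muscle relative of Pfkfb3, read -1.84, -1.73, -1.76 and -1.85 in the wild-type and -1.38, -1.06, -0.83 and -0.91 in the knockout lungs. It was higher in every knockout lung, with a difference of 0.75 ± 0.12 (SE; adjusted p = 0.0568). Pdk3, a further HIF-inducible pyruvate dehydrogenase kinase, read 1.39, 1.45, 1.43 and 1.21 in the wild-type and 0.98, 0.83, 0.69 and 0.61 in the knockout lungs. It was lower in every knockout lung, at -0.59 ± 0.10 (SE; adjusted p = 0.0599). The 4 higher hypoxia genes at an unadjusted p under 0.05, named after their values were seen, were Egln2 at 0.38 ± 0.13 (SE; adjusted p = 0.137), Angptl4 at 0.30 ± 0.10 (SE; adjusted p = 0.149), Ddit4 at 0.48 ± 0.18 (SE; adjusted p = 0.173) and Car12 at 1.08 ± 0.47 (SE; adjusted p = 0.210). The 5 lower glycolysis genes at that level were Pdk3, Pygl, Pgls, G6pdx and Adpgk.

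**Figure D5:**
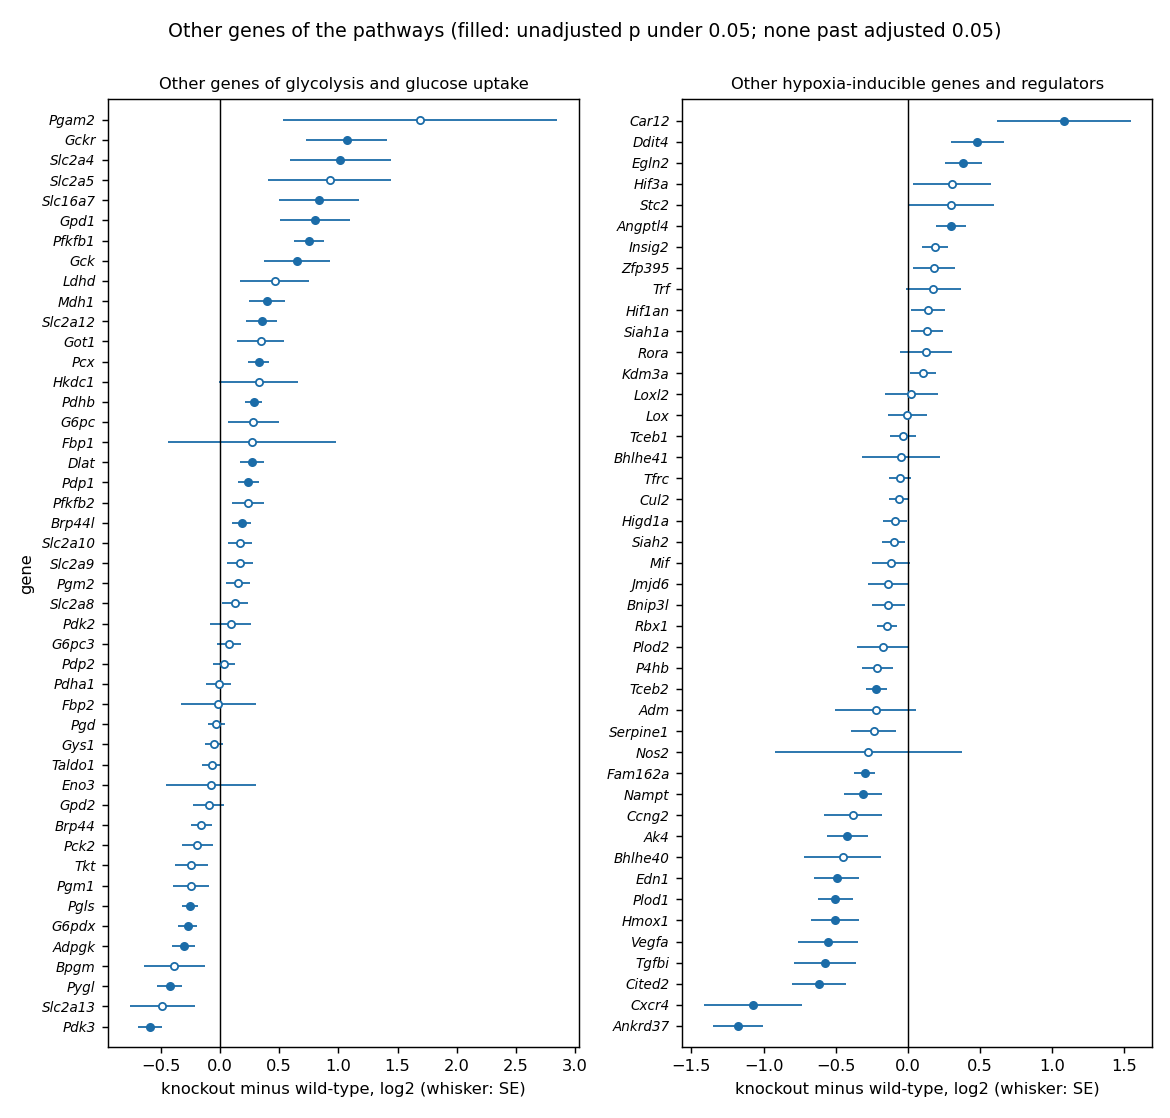
Difference between knockout and wild-type lungs (x axis, log2 signal, whiskers the SE) for the 46 further genes of glycolysis and glucose uptake (left) and the 44 further hypoxia-inducible genes and regulators (right), sorted by size and filled where the unadjusted p is under 0.05. Ankrd37 lies lowest on the right at -1.18, and Pgam2 highest on the left with a whisker of more than 1 log2 unit.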

How the data were processed

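RNA from 8 lungs was measured on single-colour (Cy3) Agilent arrays, 1 per lung. Scans were quantified in Agilent Feature Extraction (version 10.7.1.1), per the submitters' processing notes, and probe coordinates are on mm9, per the file headers. The deposited intensity values are background-subtracted and detrended per array, with surrogate values for signals not told from background. The authors' deposited log2 table has a median of 5.63 in each column and follows the log2 scanner signals (r above 0.999); the sources used here do not say how it was scaled.

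Control and outlier spots (154 to 245 per array) were left out, spots of a probe averaged, and log2 signal scaled by subtracting each array's 75th percentile over 55681 probes. No spot was saturated. Probes well above background on 3 or more of 4 arrays of a group were kept, and the brightest probe stood for its gene. The 40 genes have 67 probes, 66 of them kept. The comparison used limma (version 3.58.1, R 4.3.3), a fit tested on simulated data. Replicates are mice, 4 per group per the design text, and their number limits precision. Promoters are from RefSeq (GRCm38.p6). The genes, lists and tests were chosen with earlier results of these data known. Full values are given for members at an unadjusted p under 0.05, with separate groups, with a lung standing apart, and for 10 key genes of the pathways; of other pathway genes the 5 with the smallest p are named. Alternatives were normexp background correction (offset 50), quantile normalization, median centring, other filters, the deposited table, a replicate block, probe averages and single probes, an intensity trend, array weights, the cardiac covariate and leaving out each lung.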

Additional observations from a re-analysis of the deposited data

Results flagged for a closer look

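Of 80 groups of 4 lungs examined (40 genes, 2 genotypes), 5 held a lung whose gap to its nearest neighbour exceeded Dixon's critical share of the group's range, and chance flags about 1 in 20 groups. Gpi1 in knockout replicate 4 stood at 6.653, above the other knockout lungs. Gapdh in knockout replicate 3 stood at 8.151, below them. Pkm2 in wild-type replicate 1 stood at 5.924, below wild-type lungs that were nearly equal. Egln1 in wild-type replicate 4 stood at -2.88, below its group. Bnip3 in wild-type replicate 2 stood at 3.657, above its group. All are log2 signals on the scale of the report.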

How the results depend on the processing

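The number of genes called over the whole array, 15 with the settings reported, varied widely. It was 512 with normexp, 13 with quantile normalization, 17 with median centring, 3517 with no filter on dim probes, 126 with the filter on all 8 arrays, 13 in the deposited value table, 9 with the mean of probes, 417 with an intensity trend, 302 with array weights and 1734 with the cardiac covariate. Members called were 2 with normexp or the trend (Egln3 and P4ha1), 4 with no filter (Pfkl and Hk3 added), 1 with the filter on all 8 arrays or array weights (Egln3) and 12 with the cardiac covariate. Further pathway genes called were 3 with normexp, the trend or array weights, 5 with no filter, 2 with the filter on all 8 arrays and 9 with the cardiac covariate. Leaving out 1 lung gave 1 to 24 genes, 0 members and 0 to 1 pathway gene (Ankrd37, without wild-type replicate 4). The median of the glycolytic genes was -0.18 to -0.06 and that of the HIF genes -0.06 to -0.01 in those fits; with the mean of probes the HIF median moved to -0.12. The difference in percent of spots well above background was -4.52 to -3.28 there, with an exact permutation p of 0.0286 without wild-type replicate 4.

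With the replicate number as a block, 46 genes and 1 member (Egln3, adjusted p = 0.0437) were called. Same-numbered lungs, which shared a slide column, correlated at 0.129, 0.47, 0.0119 and -0.292 in their deviations from the group means. Differently numbered lungs correlated at -0.465 to 0.293. With so few lungs these values cannot show whether the numbers pair the lungs.

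Differences near 0 changed sign. Arnt became -0.0072 with normexp, -0.051 with median centring, -0.28 with the mean of probes and -0.56 on its other probe. Slc16a1 became -0.041 with quantile normalization, median centring and the deposited table. Median centring, which moves the median of all genes to -0.083, turned Hk1 (-0.013), Hk2 (-0.010), Bnip3 (-0.044) and Ndrg1 (-0.045). The cardiac covariate turned Hk2 (-0.22), Bnip3 (-0.054) and Ndrg1 (-0.12). Bnip3 was -0.037 with the mean of probes and -0.18 on another probe, Epas1 -0.12 with the mean and -0.35 and -0.092 on other probes, and Gapdh 0.0083 with array weights. Leaving out 1 lung gave Hk2 -0.072 to 0.20, Egln1 -0.11 to 0.023, Bnip3 -0.022 to 0.097, Ndrg1 -0.064 to 0.11, Pfkfb4 -0.094 to 0.010, Pgk1 -0.18 to 0.0051, Slc16a1 -0.12 to 0.27, Epas1 -0.012 to 0.14, Arnt -0.034 to 0.079 and Gapdh -0.049 to 0.033. The causes were not tested.

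The 4 lungs per group, the single slide and the unequal shares of dim spots limit the precision, and the unadjusted intervals in the report give its size for each gene.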
